A study of Drosophila melanogaster with 24 samples.

Results

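The Cpr genes of Drosophila melanogaster encode cuticle proteins, and the intervals occupied by Stwl and by BEAF in ovaries were examined at each of them. A gene was taken when it is protein-coding and its symbol is Cpr followed by a number, which gave 70 of the 13922 protein-coding genes of the X chromosome, of arms 2L, 2R, 3L and 3R and of chromosome 4. The symbol Cpr alone, which belongs to the cytochrome P450 reductase gene, was not taken, nor were CG34461 and CG34462, which carry Cpr66Ca only as an older name. Membership rests on symbols. The members lie on 3L (35 genes), 2R (21), 2L (5), 3R (5) and X (4).

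Proteins were mapped by CUT&RUN, in which a nuclease tethered to an antibody cuts the DNA around the bound protein and the released fragments are sequenced. Whole ovaries were profiled with an antibody to Stwl, named a transcription factor in the labels, in bam GKD flies (labelled as undifferentiated stages) and in WT flies (differentiated stages), and with an antibody to BEAF, named a boundary element, in WT flies. No treatment was given, and no source used here gives the strain, the age or the driver of the bam knockdown. Of the 24 samples of the series, these 3 were used, with 1 list of intervals each, so no value below has a replicate error, no test between conditions was possible and every difference is a difference between lists. The genotype of the ovaries and the germline stages in them cannot be told apart. The bam GKD list held 12857 Stwl intervals (median width 807 bp), the WT list 8576 Stwl intervals (median 721.5 bp) and the BEAF list 5083 (median 236 bp). Read depth is unknown, and no interval has a score.

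Insect cuticle is built from chitin fibres and proteins secreted by epidermal cells. Many of its structural proteins share the Rebers and Riddiford consensus, a chitin-binding region, and the Cpr genes are named for it and for their cytological band. They are known for expression in epidermis, in bursts timed by ecdysone at the moults, and many sit next to each other as products of tandem duplication. Stwl is needed to keep germline stem cells, bam starts germline differentiation, and BEAF is known to sit near the starts of broadly expressed genes.

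Stwl lay at more Cpr genes in bam GKD than in WT, BEAF lay at very few, and each of the 3 shares was below that of all protein-coding genes. A gene was called when an interval came within 500 bp of either of its annotated ends. The annotation table gives no strand, so starts and ends of transcription were not told apart. In bam GKD, 26 of 70 Cpr genes (37.1%) had Stwl at an end, against 61.4% of all protein-coding genes. In WT, 10 of 70 (14.3%) had Stwl at an end, against 55.7% of all protein-coding genes. BEAF lay at 3 of 70 (4.29%), against 28.1% of all protein-coding genes. Cpr genes are short, with a median length of 1093.5 bp against 2163 bp over all protein-coding genes. Among the 9413 protein-coding genes between the 10th and the 90th percentile of Cpr length, the shares called were 57.7% for Stwl in bam GKD, 53.7% for Stwl in WT and 27.5% for BEAF, close to those of all genes.

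Inside the genes the lists stood in the same order. An interval overlapped 16 Cpr genes (22.9%) in bam GKD, 8 (11.4%) in WT and 1 (1.43%) for BEAF. The shares were 48.3%, 45.7% and 22.9% over all protein-coding genes, and 38.8%, 39.6% and 18.9% over those of Cpr length. Neither an end nor the body of 42 Cpr genes (60.0%) was touched by any of the 3 lists, against 28.8% of all protein-coding genes. These 42 include every member on 3R (Cpr92A, Cpr92F, Cpr97Ea, Cpr97Eb and Cpr100A), all of the clusters Cpr62B and Cpr64A, and 6 of the 7 members each of Cpr47E and Cpr65A.

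By the median, Cpr genes were also farther from the nearest interval than protein-coding genes as a whole. The median distance from a Cpr gene to Stwl was 1090 bp in bam GKD, against 30 bp over all protein-coding genes, and 12576 bp in WT, against 60.5 bp. To BEAF it was 26439 bp, against 5923 bp. Over the protein-coding genes of Cpr length these medians were 111 bp, 147 bp and 6900 bp. In bam GKD, 34 Cpr genes (48.6%) had a Stwl interval within 1000 bp, against 67.3% of all protein-coding genes, and in WT 15 (21.4%) had, against 61.0%. More than 10000 bp separated 13 Cpr genes (18.6%) from Stwl in bam GKD, against 9.89% of all protein-coding genes, and 42 (60.0%) in WT, against 17.4%. The farthest member from Stwl was Cpr5C on X, 34654 bp away in bam GKD and 39983 bp away in WT.

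**Figure D1:**
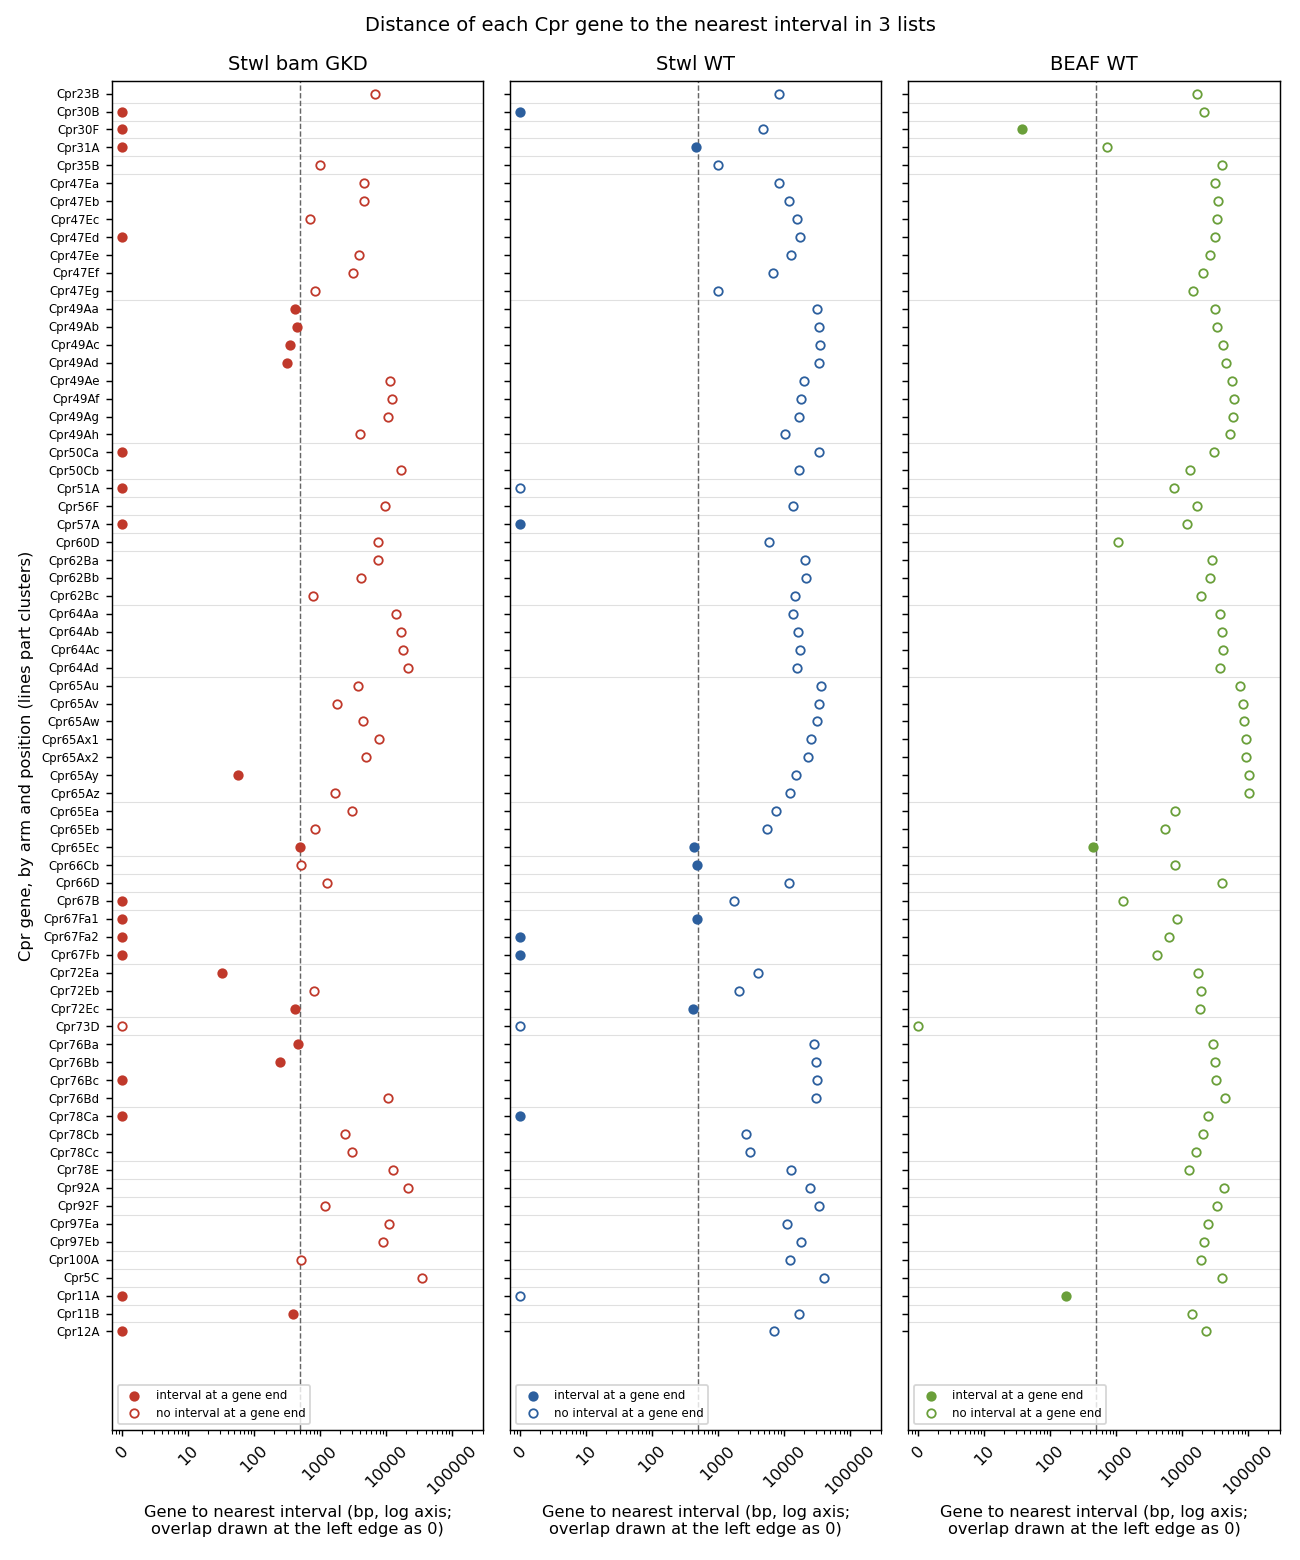
Distance of each of the 70 Cpr genes to the nearest Stwl interval in bam GKD, Stwl interval in WT and BEAF interval in WT, in bp on a log axis, with members ordered by arm and position, filled points for genes with an interval within 500 bp of an end and the dashed line at 500 bp. Filled points number 26, 10 and 3, and the 7 members of Cpr65A lie between 12358 and 36029 bp from Stwl in WT.

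**Figure D2:**
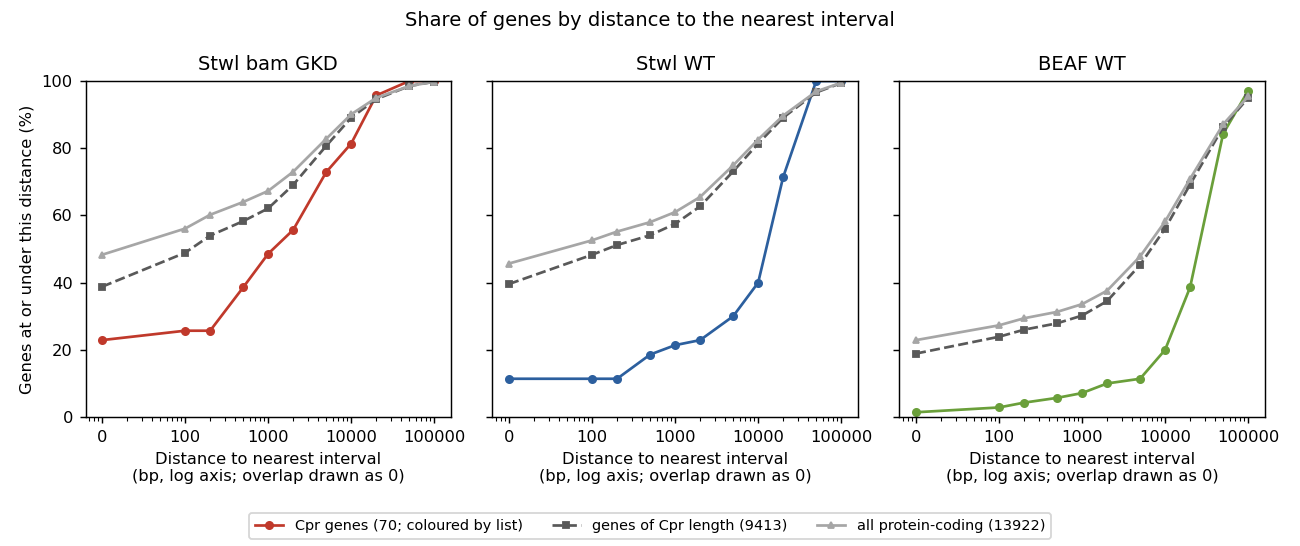
Cumulative share of genes, in percent, by distance to the nearest interval in bp on a log axis, for the 70 Cpr genes, for the 9413 protein-coding genes of similar length and for all 13922 protein-coding genes. The Cpr curve runs below the others up to 10000 bp in all 3 panels, with the widest separation for Stwl in WT, where 40.0% of Cpr genes and 82.6% of all protein-coding genes lie within that distance.

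Between the genotypes, the members with Stwl fell mostly into bam GKD. Stwl lay at an end in bam GKD only at 17 Cpr genes (24.3%), against 11.8% of all protein-coding genes, and in WT only at 1 (1.43%), against 6.18%. It lay at an end in both genotypes at 9 Cpr genes (12.9%), against 49.6%, and in neither at 43 (61.4%), against 32.4%. Of the Cpr genes with Stwl in bam GKD, 34.6% also had it in WT, and of all protein-coding genes with Stwl in bam GKD, 80.7% had. In the other direction 9 of the 10 Cpr genes with Stwl in WT also had it in bam GKD, against 88.9% of all protein-coding genes with Stwl in WT. The bam GKD list was also cut to its 8576 widest intervals, as many as the whole WT list holds. Those kept were at least 461 bp wide, whereas WT intervals went down to 176 bp. With this cut, 11 Cpr genes had Stwl in bam GKD only, against 8.27% of all protein-coding genes. In WT only, 1 had it, against 16.3%. The excess in bam GKD only was not seen with every setting. With intervals over the gene itself 8 Cpr genes were in this class, against 11.2% of all protein-coding genes. With the wider 50% of each list 7 were, against 10.9%. As shares of the Cpr genes, both counts were close to those of all protein-coding genes. The 17 in bam GKD only were Cpr30F, Cpr47Ed, Cpr49Aa, Cpr49Ab, Cpr49Ac, Cpr49Ad, Cpr50Ca, Cpr51A, Cpr65Ay, Cpr67B, Cpr72Ea, Cpr76Ba, Cpr76Bb, Cpr76Bc, Cpr11A, Cpr11B and Cpr12A.

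The widest intervals at members in bam GKD were 13181 bp at Cpr11A (X, 12476797 to 12489977) and 9714 bp across Cpr67Fa1, Cpr67Fa2 and Cpr67Fb (3L, 10886176 to 10895889). Next came 7078 bp at Cpr30B, 6356 bp at Cpr67B and 4622 bp at Cpr51A. Others in bam GKD were narrow: 210 bp between Cpr49Aa and Cpr49Ab, and 171 bp between Cpr49Ac and Cpr49Ad. The median over the 26 distinct bam GKD intervals at members was 726 bp, against 1022 bp over those at any protein-coding gene. In WT the 8 distinct intervals at members ran between 200 bp and 4196 bp, with a median of 816.5 bp against 913 bp over those at any protein-coding gene. The widest of WT were 4196 bp across the Cpr67F genes, 2677 bp at Cpr65Ec, 2339 bp at Cpr30B, 860 bp at Cpr31A and 773 bp at Cpr72Ec.

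Of the 26 bam GKD intervals at members, 10 (38.5%) overlapped a WT interval, against 75.4% of bam GKD intervals at the ends of all protein-coding genes. All 8 WT intervals at members overlapped a bam GKD interval, against 86.7% of WT intervals at the ends of all protein-coding genes. At Cpr66Cb, the member with Stwl in WT only, the nearest bam GKD interval begins 504 bp from the gene, just beyond the window, and the WT interval, which it overlaps, is 200 bp wide and begins 484 bp past the gene (3L, 8339079 to 8339278). Its place in the WT only class thus turns on a small shift in where the intervals begin. Some members in bam GKD only carry WT intervals away from their ends. Stwl in WT lay inside Cpr51A in an interval of 357 bp, 836 bp from the nearer end, and inside Cpr11A in an interval of 191 bp, 1023 bp from the nearer end.

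Many calls lay in the outer part of the window, and a window of 250 bp left Stwl at 17 Cpr genes in bam GKD and 5 in WT. Over all protein-coding genes that window left Stwl at 57.5% in bam GKD and 53.0% in WT. In bam GKD, Cpr65Ec was called at 487 bp, Cpr76Bc at 465 bp, Cpr76Ba at 459 bp, Cpr49Ab at 440 bp, Cpr72Ec at 416 bp and Cpr49Aa at 413 bp, while Cpr100A at 507 bp, Cpr47Ec at 709 bp and Cpr62Bc at 772 bp were not. In WT, Cpr67Fa1 was called at 484 bp, Cpr31A at 467 bp, Cpr65Ec at 434 bp and Cpr72Ec at 414 bp, and Cpr35B at 982 bp and Cpr47Eg at 990 bp were not. For BEAF, Cpr65Ec was called at 444 bp and Cpr31A at 722 bp was not.

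Most WT intervals called at Cpr genes also reached a protein-coding gene outside the family, whereas most bam GKD intervals did not. In bam GKD, 16 of the 26 intervals came within 500 bp of no end of a protein-coding gene outside the family, and 14 (53.8%) reached a single protein-coding gene, against 34.2% of bam GKD intervals at the ends of all protein-coding genes. In WT, 7 of the 8 intervals reached a protein-coding gene outside the family, and 1 (12.5%) reached a single protein-coding gene, against 27.7%. At Cpr65Ec the WT interval lay 434 bp from the member and covered an end of form3, which encodes an actin-nucleating formin. At Cpr31A the WT interval lay 467 bp from the member and covered an end of Pen, an importin alpha gene of nuclear transport. At Cpr66Cb it lay 28 bp from an end of Pex2, a peroxisome assembly gene. The WT intervals at Cpr72Ec, Cpr30B, Cpr57A and the Cpr67F genes covered an end of CG4842, of CG13113, of the odorant-binding protein gene Obp57d and of Aps. These neighbouring genes were named because the intervals reached them. Cpr78Ca had a WT interval of its own, 305 bp wide, overlapping the gene by 12 bp and lying 1257 bp from pzg, the nearest other protein-coding gene end. Leaving out intervals that also reach another protein-coding gene left Stwl at 16 Cpr genes in bam GKD and at 1 in WT, Cpr78Ca.

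Several bam GKD intervals lay far from the nearest end of a protein-coding gene outside the family. The interval of 1759 bp at Cpr12A lay 5905 bp from the nearest other protein-coding gene end, that of 3318 bp at Cpr11B 10510 bp away, and that of 2416 bp at Cpr76Ba 10808 bp away. At Cpr50Ca, one of the longest members (17888 bp), an interval of 521 bp lay wholly inside the gene, 175 bp from an end. In contrast the bam GKD intervals at Cpr67B, Cpr51A and Cpr30B covered the ends of CG4080, of Asx, a gene of the Polycomb group, and of Oatp30B, an organic anion transporter gene.

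BEAF was compared with Stwl to ask how far a boundary element protein shared sites with Stwl at these genes. Stwl in WT and BEAF met at an end of 1 Cpr gene, Cpr65Ec, against 26.4% of all protein-coding genes. That is 1 of the 10 Cpr genes with Stwl in WT and 1 of the 3 with BEAF, where over all protein-coding genes BEAF was present at 47.4% of those with Stwl in WT, and Stwl in WT at 93.9% of those with BEAF. Counted by interval, 5 of the 26 Stwl intervals of bam GKD at members (19.2%) overlapped BEAF, against 32.4% of those at the ends of all protein-coding genes, and 2 of the 8 of WT (25.0%) did, at Cpr65Ec and Cpr31A, against 39.6%. Cpr65Ec was also the member called in all 3 lists, which 24.3% of protein-coding genes were, and its BEAF interval (3L, 7094285 to 7094688) lay 130 bp from an end of form3. The other members with BEAF were Cpr30F, 37 bp away from an interval 147 bp wide, and Cpr11A, 176 bp away from one 383 bp wide. Neither of these BEAF intervals reached another protein-coding gene, and both overlapped a Stwl interval of bam GKD and none of WT. Cpr73D, the longest member (18590 bp; 3L, 16939100 to 16957689), had intervals of all 3 lists inside and none at its ends. Its Stwl intervals of bam GKD (4985 bp and 1739 bp) overlapped neither of the others, and its Stwl interval of WT (1657 bp) overlapped its BEAF interval (795 bp) near Obp73a.

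Members of a family cluster share flanks and can share an interval, so the clusters were described as units. Cpr genes with less than 20 kb between neighbours formed 12 clusters with 49 members, and 21 members stood alone. In the clusters, Stwl lay at an end of 17 of 49 members (34.7%) in bam GKD and 6 (12.2%) in WT, and BEAF at 1 (2.04%). Among single members Stwl lay at 9 of 21 (42.9%) in bam GKD and 4 (19.0%) in WT, and BEAF at 2 (9.52%). In the same order, the shares of all protein-coding genes were 61.4%, 55.7% and 28.1%. The spans of the clusters add up to 213 kb, of which Stwl intervals covered 5.37% in bam GKD (11.4 kb, 17 intervals, median width 461 bp) and 1.66% in WT (3.52 kb, 2 intervals), and BEAF covered none. Over the arms these shares were 16.1%, 8.74% and 1.45%. The Cpr67F cluster held 4704 bp of the covered length in bam GKD and 3510 bp, nearly all of it, in WT. Without Cpr67F, chosen after its values were seen, Stwl covered 3.23% of the cluster spans in bam GKD and 0.00577% in WT.

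The Cpr67F cluster (3L, 10889990 to 10894693, span 4704 bp) was covered whole in bam GKD by the interval of 9714 bp and to 74.6% in WT by that of 4196 bp. Both reached Aps. The copies Cpr67Fa1 and Cpr67Fa2, like Cpr65Ax1 and Cpr65Ax2, carry symbols of recent duplicates, and no source used here gives how reads that match both copies were placed, so their calls are uncertain.

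The Cpr49A cluster on 2R (8 members, span 38545 bp) held 3 Stwl intervals of bam GKD, together 614 bp, and none of WT or BEAF. Stwl lay at an end of Cpr49Aa, Cpr49Ab, Cpr49Ac and Cpr49Ad in bam GKD, through 2 narrow intervals each lying between a pair of genes, and at none of Cpr49Ae, Cpr49Af, Cpr49Ag and Cpr49Ah. The Cpr76B cluster (4 members, 20738 bp) had Stwl in bam GKD at Cpr76Ba, Cpr76Bb and Cpr76Bc through separate intervals of 2416 bp, 408 bp and 691 bp, and not at Cpr76Bd, 10643 bp from the nearest one. In WT the members of Cpr76B lay between 28675 bp and 32068 bp from Stwl.

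The Cpr65A cluster (7 members, 30348 bp) also holds 9 Lcp65A genes and Acp65Aa, known as larval and adult cuticle protein genes. It held 3 Stwl intervals of bam GKD (1529 bp) and none of WT or BEAF. In bam GKD Stwl lay 57 bp from Cpr65Ay, in an interval of 461 bp, and between 1667 bp and 7794 bp from its other 6 Cpr members. The stretch free of BEAF around Cpr65A was 432766 bp long, the longest of the 12 clusters (median 116676.5 bp). The Cpr47E cluster (7 members, 26695 bp) had Stwl at Cpr47Ed in bam GKD and at no member in WT.

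**Figure D3:**
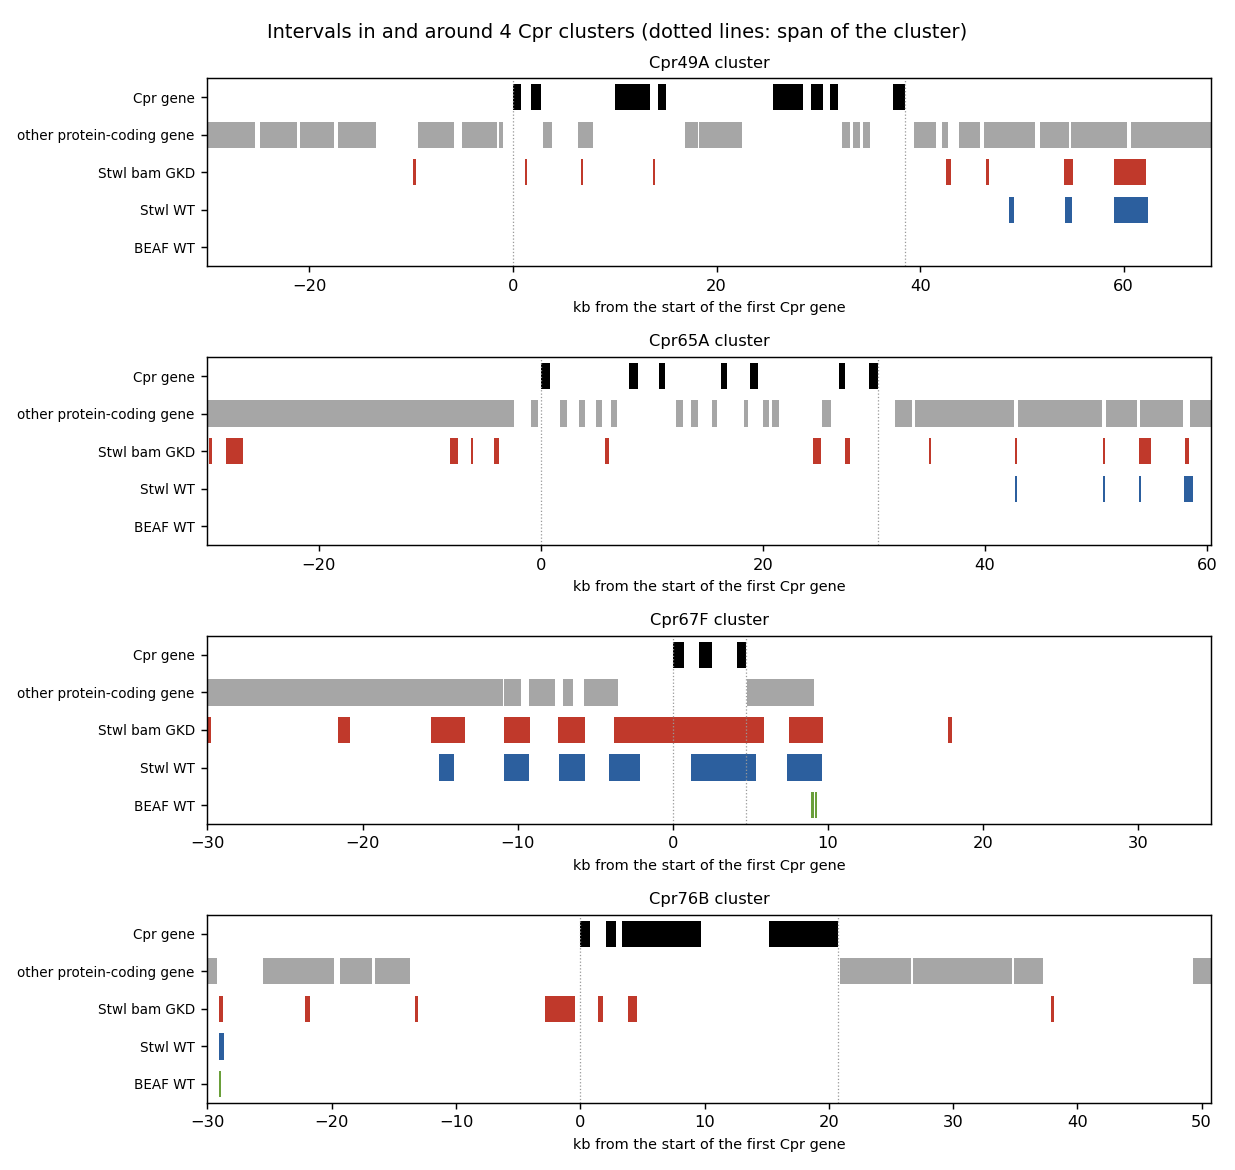
Positions of Cpr genes (black), other protein-coding genes (grey), and intervals of Stwl in bam GKD, Stwl in WT and BEAF in WT, in kb from the start of the first member, for the clusters Cpr49A, Cpr65A, Cpr67F and Cpr76B with 30 kb on each side. Within the dotted cluster spans Cpr49A, Cpr65A and Cpr76B hold Stwl intervals of bam GKD and none of WT. The span of Cpr67F lies wholly under an interval in bam GKD and to 74.6% under an interval in WT.

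Across all clusters, 2 of 12 held no Stwl interval in bam GKD (Cpr64A and Cpr97E), 10 of 12 held none in WT, and all 12 held no BEAF interval. Around the 10 clusters without Stwl in WT, the stretch between the flanking intervals ran between 13029 bp at Cpr72E and 228434 bp at Cpr50C, with a median of 66282 bp, and 4.33% of all gaps in the WT list were at least as long as that median. The median gap of that list was 4492 bp. Around all 12 clusters the stretches free of BEAF had a median of 116676.5 bp. Of all gaps in the BEAF list, 5.42% were at least as long, and their median was 4210 bp. A gap that holds a cluster must be longer than the cluster, so these stretches are long in part because of how they were found.

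Other cuticle genes were set beside the Cpr family. The 30 genes with older cuticle protein names, such as the larval (Lcp), pupal (Pcp) and adult (Acp) cuticle protein genes, had Stwl at 11 (36.7%) in bam GKD and 5 (16.7%) in WT, and BEAF at 1 (3.33%), near the shares of the Cpr genes. Among them Stwl lay in bam GKD only at Edg91 (11163 bp) and Ccp84Aa (4126 bp), in both genotypes at resilin, the gene of an elastic cuticle protein (988 bp in bam GKD, 2485 bp in WT), and in both at Lcp2. Pcp had it in WT only (1950 bp). The corneal lens is a cuticle, and of its protein genes Cpr72Ec had Stwl at an end in bam GKD and in WT, whereas Cpr66D lay 1288 bp from Stwl in bam GKD and 12063 bp in WT, and Crys lay 1281 bp from it in bam GKD and 22238 bp in WT. The 25 Tweedle genes, another cuticle protein family, had Stwl at 5 (20.0%) in bam GKD and 1 (4.00%) in WT, and BEAF at none. Both lists were below the shares of all protein-coding genes (61.4%, 55.7% and 28.1%).

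Genes that make, modify or control cuticle did not all share these values. Over all protein-coding genes the shares at an end were 61.4% for Stwl in bam GKD, 55.7% in WT and 28.1% for BEAF. Stwl lay at 6 of 19 chitin synthesis and assembly genes (31.6%) in bam GKD and 5 (26.3%) in WT, including knk and rtv in both. BEAF lay at 3 of them (15.8%). The chitin synthase gene kkv had Stwl inside and not at an end in both genotypes. Chitinases and their relatives had Stwl at 10 of 16 (62.5%) in each genotype, in bam GKD near the share of all protein-coding genes. Of these genes 8 had it in both genotypes, and BEAF lay at 1 of the 16 (6.25%). Of 9 tanning genes, which serve the hardening and colouring of cuticle, 6 (66.7%) had Stwl in bam GKD and 4 (44.4%) in WT. BEAF lay at 2 of the tanning genes (22.2%). They include y (9989 bp in bam GKD, 1058 bp in WT), stw, the laccase gene (5440 bp in bam GKD, 5435 bp in WT), and t in bam GKD only (3480 bp). The 7 transcription factor genes of cuticle formation all had Stwl in bam GKD, and 5 (71.4%) had it in WT: ovo, ftz-f1, grh, vri and Hr38. BEAF lay at an end of ftz-f1 alone among the 7 (14.3%). Hr3 had Stwl in WT and BEAF inside and not at an end. These factor genes are long, with a median length of 31127 bp.

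The low shares were also seen in other families known for expression outside the ovary. Odorant and gustatory receptor genes had Stwl at 28 of 119 (23.5%) in bam GKD and 11 (9.24%) in WT, and BEAF at 3 (2.52%). Ionotropic receptor genes had Stwl at 19 of 60 (31.7%) in bam GKD and 8 (13.3%) in WT, and BEAF at 6 (10.0%). Stwl in bam GKD only was found at 18.5% of the odorant and gustatory and 20.0% of the ionotropic receptor genes, beside 24.3% of the Cpr genes, 23.3% of those with older cuticle names and 16.0% of Tweedle genes. Over all protein-coding genes the share in bam GKD only was 11.8%, and the shares at an end were 61.4%, 55.7% and 28.1%. The differences between these families were not tested.

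**Figure D4:**
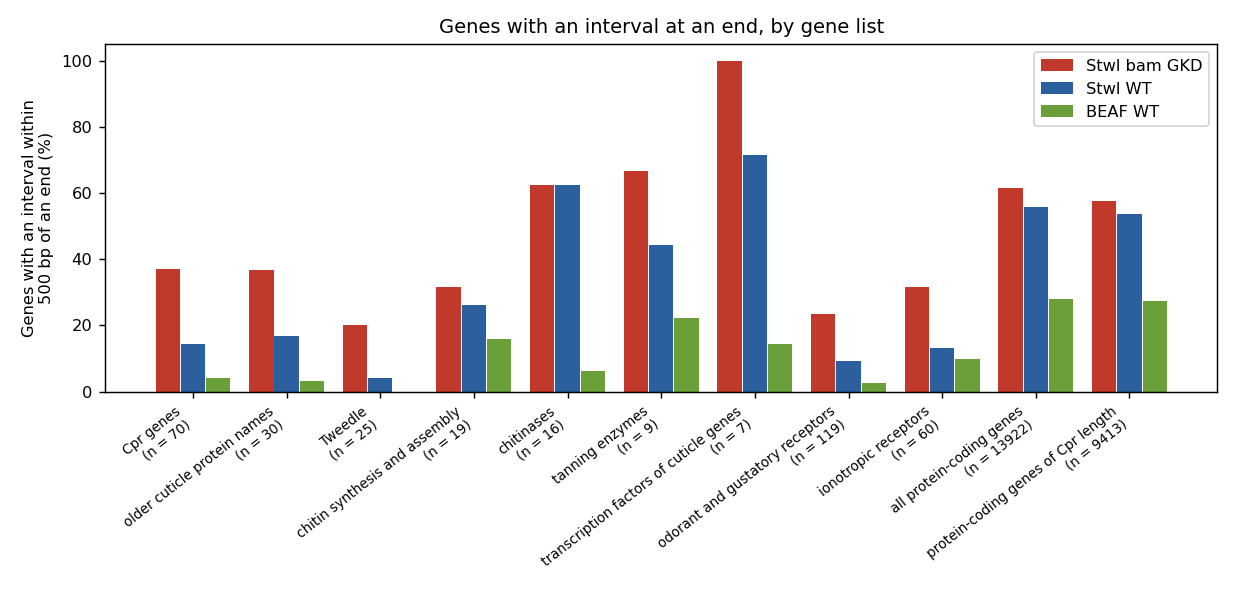
Share of genes, in percent, with an interval within 500 bp of an end, for the Cpr genes, 8 other gene lists, all protein-coding genes and those of Cpr length, with bars for Stwl in bam GKD, Stwl in WT and BEAF in WT. The Cpr bars stand at 37.1%, 14.3% and 4.29%, and those of all protein-coding genes at 61.4%, 55.7% and 28.1%.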

How the data were processed

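The deposited lists hold chromosome, start and end of each interval (dm6), without score, strand or read count, per the file headers. The submitters' processing notes name MACS2 2.1.0, deepTools 3.2.1, Bowtie2 2.2.8, SAMtools 1.9, Trim Galore 0.6.6 and FastQC 0.11.8. No source used here gives their roles or settings, the threshold, the control or any pooling of duplicates. Neighbouring intervals lay at least 1001 bp apart in each Stwl list and at least 76 bp apart in the BEAF list, so close intervals appear joined for Stwl alone. Samples were grouped by title, and 21 samples were not analysed here. Genes came from the RefSeq table of Release 6 plus ISO1 MT, the same build. Coordinates are 1-based, and an overlap is at least 1 bp. The arm span runs to the last gene or interval. Intervals were matched with Python 3.11.15, numpy 2.4.6 and pandas 2.3.3, and calls were checked on simulated intervals and against bedtools 2.31.1. No test was run: with 1 list per group, shares are descriptions beside those of all protein-coding genes.

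The members and gene lists were chosen with earlier results of these data known. Members were named when called in all 3 lists or in 1 genotype, among the 5 widest per list, in a cluster of 4 or more, or nearest the window's edge, and up to 4 genes of each other list by their widest intervals. Genes named outside this rule, such as Cpr5C, Cpr66D, Cpr73D, Crys, Pcp, knk, kkv and the transcription factor genes, were chosen after their values were seen. The names aaNAT1 and speck are of the same gene, counted once. Members restricted to the consensus, and promoter motifs, were not analysed here. Alternatives were windows of 250 bp and 1000 bp, gene bodies, the wider 50%, no intervals of 8 kb or more, no shared intervals, interval centres, joined BEAF intervals, equal numbers, cluster gaps of 10 kb and 50 kb, and genes of Cpr length.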

Additional observations from a re-analysis of the deposited data

How the results depend on the processing

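Of 58 alternative values, 35 stayed within 1.5 times of those reported and 23 did not. In the order Stwl at an end in bam GKD and in WT, the counts of Cpr genes became 17 and 5 with a window of 250 bp, against 57.5% and 53.0% of all protein-coding genes. With interval centres in the window they became 12 and 2, against 41.8% and 41.1%. The counts became 15 and 1 without intervals that reach any other gene, and 16 and 1 when only protein-coding genes were considered, an alternative chosen after seeing the data. For neither of these filters was a share of all protein-coding genes computed. The bam GKD count became 16 with intervals over the gene itself, against 48.3% of all protein-coding genes, and BEAF there fell to 1, against 22.9%. With the wider 50% of each list the bam GKD count became 13, against 39.4%. Cpr genes with Stwl in bam GKD only numbered 8 with intervals over the gene itself, against 11.2% of all protein-coding genes. They numbered 7 with the wider 50%, against 10.9%, and 11 with interval centres, against 12.1%. Trimming the bam GKD list by width to the number of intervals in the whole WT list likewise gave 11, against 8.27%. Of 70 Cpr genes, the 8 and the 7 were close to the shares of all protein-coding genes. Cpr genes with Stwl in WT only numbered 0 with a window of 250 bp, against 6.59% of all protein-coding genes. They also numbered 0 with intervals over the gene itself, against 8.63%, and without shared intervals of either kind, where no share of all genes was computed. Leaving out intervals of 8 kb or more, which removes the bam GKD interval over Cpr67F, gave 4 in WT only, against 7.61%. The covered share of cluster spans in bam GKD was 2.62% with the wider 50%, and without Cpr67F, also chosen after seeing the data, 3.23% in bam GKD and 0.00577% in WT. The cause was not tested elsewhere. The share of Cpr genes with an interval at an end stayed below that of all protein-coding genes in every alternative for which both were computed. No paired analysis was possible because each group has 1 list. With no score or depth, weak sites and absent ones cannot be told apart.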
